A study of Mus musculus with 30 samples.

Results

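The CC chemokines described here are 9 genes of mouse macrophages, Ccl2, Ccl3, Ccl4, Ccl5, Ccl6, Ccl7, Ccl9, Ccl12 and Ccl22, picked by symbol from the 54146 genes of an RNA-seq count table. The 30 libraries came from J774A.1, a mouse macrophage-like cell line. The 5 groups of cells were clones. WT1, WT2 and WT3 were wildtype single-cell expansions that had not been electroporated, and KO1 and KO2 carried a homozygous CRISPR deletion of a B2_Mm2 repeat in the first intron of Dicer1. Each clone was sequenced untreated (UT) and after 4 h with 100 ng/mL mouse interferon gamma (IFNG), with 3 libraries per clone and treatment. Each WT or KO line was thus a single clone, and a genotype rested on 3 WT clones against 2 KO clones. The sources used here do not say whether the 3 libraries of a group came from separate cultures, so p-values over libraries measure the spread between libraries.

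CC chemokines are small secreted proteins with adjacent cysteines that attract leukocytes through G protein-coupled receptors. Ccl2, Ccl7 and Ccl12 are the monocyte chemoattractants and act through CCR2, Ccl3, Ccl4 and Ccl5 attract monocytes and T cells, Ccl6 and Ccl9 are CCR1 ligands found in rodents, and Ccl22 attracts T cells through CCR4. IFNG, the type II interferon, acts on promoters that hold a palindromic gamma-activated site (GAS), and raises further transcription factors such as IRF1. Macrophages are a main source of these chemokines at sites of infection.

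In the files' build, mm10, 8 of the 9 genes lie on chromosome 11 in a pair of clusters. The monocyte chemoattractants run in the order Ccl2 (chr11:82035571-82037453), Ccl7 (chr11:82045712-82047525) and Ccl12 (chr11:82101845-82103400), all on the plus strand. The second cluster holds Ccl5 (chr11:83525778-83530518), Ccl9 (chr11:83572919-83578636), Ccl6 (chr11:83587882-83593087) and Ccl3 (chr11:83647844-83649355) on the minus strand and Ccl4 (chr11:83662584-83664683) on the plus strand. Ccl22 lies at chr8:94745590-94751699 on the plus strand. None of the 9 overlapped another annotated gene on its own strand, and counting was stranded.

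RefSeq promoter windows of 250 bases before to 50 after the start (GRCm38.p6, the assembly of mm10) were at hand for 5 of the 9 genes, and 4 are shown here because their genes split by IFNG response, as described below: Ccl12 rose in every clone, while Ccl3, Ccl6 and Ccl9 did not rise in any. No window was at hand for Ccl2, Ccl4, Ccl5 or Ccl7, so Ccl12 alone stands for the genes that rose. Each is written 5′ to 3′ on the strand of its gene, and capitals mark matches on either strand to 4 motifs: the GAS letters TTCNNNGAA, an interferon-stimulated response element core GAAANNGAA, a kappaB-like GGGNNNNNCC and the TATA box TATAAA. Matches may overlap. The windows are Ccl12 at chr11:82101595-82101894 (plus strand), Ccl3 at chr11:83649329-83649628, Ccl6 at chr11:83593038-83593337 and Ccl9 at chr11:83578587-83578886 (minus strand).
Ccl12: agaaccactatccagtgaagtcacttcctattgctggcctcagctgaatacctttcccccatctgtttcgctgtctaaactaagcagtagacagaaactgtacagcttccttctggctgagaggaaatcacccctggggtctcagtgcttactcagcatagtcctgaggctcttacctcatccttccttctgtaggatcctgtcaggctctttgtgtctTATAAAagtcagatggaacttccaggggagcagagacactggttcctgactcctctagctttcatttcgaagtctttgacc
Ccl3: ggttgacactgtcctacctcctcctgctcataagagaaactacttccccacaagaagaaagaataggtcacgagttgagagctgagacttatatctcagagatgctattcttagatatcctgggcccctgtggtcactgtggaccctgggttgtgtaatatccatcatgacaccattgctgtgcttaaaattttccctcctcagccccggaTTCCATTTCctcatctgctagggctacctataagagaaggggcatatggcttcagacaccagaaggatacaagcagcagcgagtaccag
Ccl6: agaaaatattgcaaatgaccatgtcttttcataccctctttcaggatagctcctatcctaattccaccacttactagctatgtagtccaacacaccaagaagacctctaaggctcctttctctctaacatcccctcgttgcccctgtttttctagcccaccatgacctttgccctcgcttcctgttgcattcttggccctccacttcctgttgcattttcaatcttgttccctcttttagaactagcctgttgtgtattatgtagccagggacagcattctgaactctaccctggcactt
Ccl9: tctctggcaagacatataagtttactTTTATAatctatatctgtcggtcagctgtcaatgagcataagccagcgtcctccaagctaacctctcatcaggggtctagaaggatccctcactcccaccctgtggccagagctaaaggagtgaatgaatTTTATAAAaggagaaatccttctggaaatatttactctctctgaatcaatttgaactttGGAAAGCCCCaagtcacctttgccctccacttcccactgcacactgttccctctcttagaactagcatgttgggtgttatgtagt

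In these windows Ccl12 held a TATA box beginning 31 bases before the start, and none of the other 3 motifs. Ccl3 held an interferon response element core on the reverse strand beginning 39 bases before the RefSeq start. That start lay 23 bases upstream of the start in the count table's annotation. Ccl9 held a kappaB-like match beginning 35 bases before the start, and 3 TATA matches, a pair of them overlapping. Ccl6 held no match. The GAS letters were in none of the 4 windows, and among all 32851 windows of this length 8.3% held them. The interferon response element core was in 8.56% of all windows, the kappaB-like letters in 50.8% and the TATA box in 13.6%. These matches describe the letters of the windows and are not evidence of binding.

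The libraries held 15566122 to 37992642 counts, with medians of 23275996 in UT and 18071813 in IFNG libraries of the WT clones, and of 26630614 and 26235556 in those of the KO clones. Levels are given in CPM, counts scaled to a common library size with TMM factors, and in CPM per kilobase of exon where genes are compared with each other. Of 8 macrophage markers, Csf1r, Cd68, Lyz2, Itgam, Spi1 and Ptprc were each at 168 CPM or more in every library, while Mertk ran from 7.20 to 59.8 CPM and Adgre1, which encodes F4/80, from 9.27 to 294 CPM. The T cell markers Cd3g, Cd8a and Trac and the neutrophil marker Camp had no count in any library, and the summed neutrophil, fibroblast, endothelial and dendritic cell lists reached at most 3.48, 2.92, 3.29 and 5.59 CPM. As a check of the treatment, the interferon-induced GTPase gene Gbp2b went from 1.91 to 3.70 CPM over all UT libraries to 1076 to 1943 CPM over all IFNG libraries. Dicer1 stood at 96.8 to 130.2 CPM in WT and 70.5 to 108 CPM in KO libraries when untreated, and at 132 to 171 and 71.5 to 104.6 CPM after IFNG. The deleted repeat is intronic and exons were counted, so these Dicer1 values do not show the deletion itself.

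Within each group, the library with the highest number in its column header stood apart for 5 of the 7 genes at 1 CPM or more. Of the 10 groups, that library was the lowest of the 3 for Ccl2, Ccl12 and Ccl4 in 9 groups each and for Ccl7 in 8, and the highest for Ccl9 in 9. Its distance from the mean of the other two on the log2 scale had a median of -0.41 for Ccl7 (range -0.76 to 0.04), -0.22 for Ccl2 and 0.18 for Ccl9. For Ccl3 it was the lowest in 5 groups and the highest in 2, and for Ccl6 the lowest in 1 and the highest in 3. Over all 11580 genes averaging 1 CPM or more, the deviations of these libraries correlated weakly across groups (median r = 0.07, 45 pairs, range -0.24 to 0.36). The middle libraries did so to a like degree (median r = 0.06, range -0.06 to 0.25), and the lowest-numbered less (0.016, -0.27 to 0.35). The sources used here give no date, batch or replicate number for a column, and what sets these libraries apart was not tested. Where leaving out these 10 libraries changed a call, the value is given beside it. In the sentences below, the 3 values of a group follow the order of the column numbers, so the last belongs to the library just described.

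Untreated cells held 7 of the 9 transcripts at 1 CPM or more in some group. Per kilobase of exon, Ccl9 and Ccl3 led in the WT clones, at 153 ± 26.7 and 143 ± 38.4 CPM per kb (SD, n = 9 libraries), and their libraries overlapped. Ccl2 (95.5 ± 12.8) and Ccl4 (94.2 ± 25.3) followed and overlapped each other too, and then came Ccl12 (24.6 ± 4.38), Ccl7 (10.5 ± 3.14) and Ccl6 (6.02 ± 0.80). In the KO clones Ccl9 stood alone at the top, at 242 ± 38.5 CPM per kb (n = 6), above every library of Ccl2 (151 ± 21.5). Ccl5, a chemoattractant of T cells and monocytes, lay at 0.11 to 0.54 CPM in the 15 UT libraries and Ccl22 at 0 to 0.46 CPM.

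After IFNG the order changed. Ccl2 was the most abundant per kilobase in all 5 clones, at 406 ± 54.3 CPM per kb over the WT and 567 ± 43.3 over the KO libraries. Ccl12 had the next highest mean in each WT clone, with 227 ± 30.4 CPM per kb over their libraries, which overlapped those of Ccl4 in WT1 and over the WT clones together, and its mean lay behind those of Ccl2, Ccl9 and Ccl4 in each KO clone, with 151 ± 14.1. The sum over the 9 genes went from a median of 504.6 CPM per kb (442 to 682) to 1067 (915 to 1254) in the WT libraries, and from 675 (653 to 689) to 1371 (1273 to 1399) in the KO libraries. UT and IFNG libraries did not overlap in that sum. Ccl2 made up 18.4% ± 3.19 of the sum in UT and 37.1% ± 1.84 in IFNG libraries of the WT clones, whereas Ccl9 went from 29.1% ± 2.68 to 11.5% ± 2.29 and Ccl3 from 26.8% ± 2.92 to 9.49% ± 1.47.

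**Figure D1:**
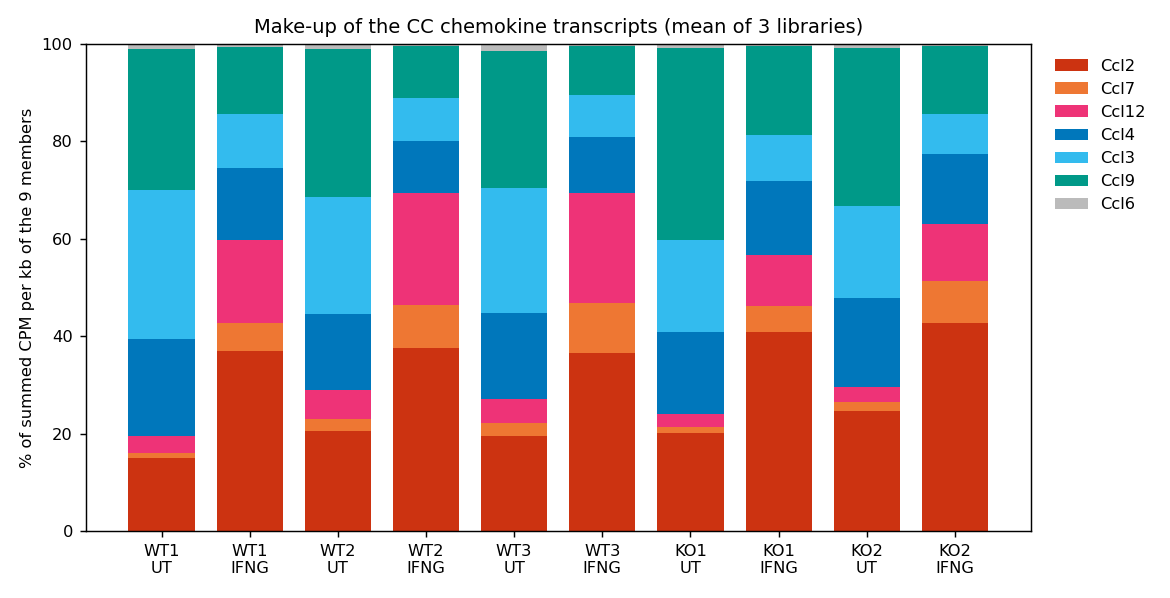
Share of each gene in the summed CPM per kb of the 9 CC chemokines, in percent on the vertical axis, for each clone untreated (UT) and after IFNG, as the mean of 3 libraries. The monocyte chemoattractants Ccl2, Ccl7 and Ccl12 fill a larger part of every IFNG bar than of the UT bar beside it, and Ccl5 and Ccl22 are too small to be seen.

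The monocyte chemoattractants rose in every clone. In WT1, Ccl2, the main ligand of CCR2, was at 115, 118 and 90.4 CPM untreated and at 506, 577 and 408 CPM after IFNG. WT2 had 123, 127 and 103 CPM against 499, 500.2 and 443 CPM, and WT3 had 108, 109.6 and 83.1 against 422, 415 and 388 CPM. No UT library of a clone reached an IFNG library of it. KO1 went from 160.3, 176 and 129.95 CPM to 592, 689 and 574 CPM, and KO2 from 187, 201 and 175.5 CPM to 679.8, 666 and 671 CPM. Within clones the log2 fold change of Ccl2 lay between 1.84 ± 0.05 (SE, KO2) and 2.19 ± 0.12 (WT1), with adjusted p from 5.42e-09 to 6.82e-17 (edgeR quasi-likelihood test, Benjamini-Hochberg over all genes tested, 3 against 3 libraries).

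Ccl7 rose further. Its libraries ran from 3.90 to 11.7 CPM (median 7.48) untreated and from 45.6 to 86.0 CPM (median 72.2) after IFNG in the WT clones, and from 4.58 to 11.2 CPM (median 8.37) and 46.1 to 100.1 CPM (median 75.3) in the KO clones. The log2 fold change within clones lay between 2.96 ± 0.10 (WT2) and 3.25 ± 0.14 (KO1). Ccl12, a further mouse CCR2 ligand, went from 13.2, 11.6 and 10.4 CPM to 109, 120.2 and 93.3 CPM in WT1, from 16.0, 16.4 and 15.7 to 137, 144 and 136 CPM in WT2, and from 13.2, 12.1 and 10.3 to 127, 123 and 107 CPM in WT3. In KO1 it went from 11.2, 8.92 and 8.78 to 74.7, 82.8 and 70.0 CPM and in KO2 from 9.54, 12.3 and 10.8 to 90.4, 86.2 and 84.0 CPM. Its log2 fold change lay between 2.997 ± 0.08 (KO2) and 3.32 ± 0.08 (WT3). By rank of the log2 fold change among 13423 genes tested over the pooled WT clones, Ccl12 was the 108th, Ccl7 the 121st and Ccl2 the 207th from the top. Ccl2, Ccl7 and Ccl12 were called higher in each clone under every alternative run.

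**Figure D2:**
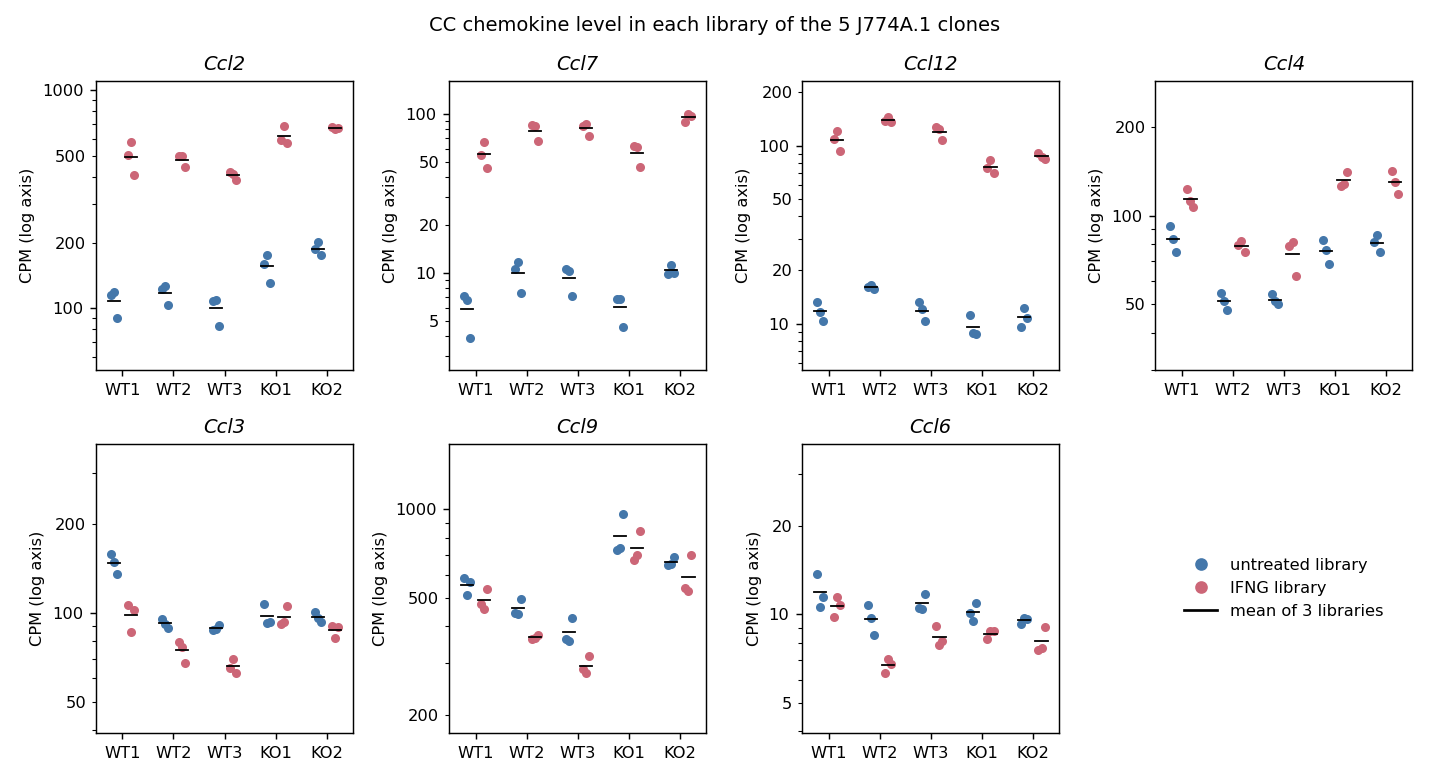
CPM on a log axis for the 7 members above 1 CPM, 1 panel a gene, with 3 UT and 3 IFNG libraries in each clone and bars at their means. Ccl2, Ccl7, Ccl12 and Ccl4 libraries sit higher after IFNG in each clone, while those of Ccl3, Ccl9 and Ccl6 overlap or sit lower.

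Ccl4 and Ccl3, a neighbouring pair of macrophage inflammatory protein genes, moved in opposite directions in the WT clones. Ccl4 went from 92.0, 83.5 and 75.2 CPM to 123, 113 and 107 CPM in WT1, from 54.5, 51.2 and 47.8 to 79.6, 82.0 and 75.5 CPM in WT2, and from 54.3, 51.2 and 50.04 to 78.9, 81.5 and 62.6 CPM in WT3. The KO clones went from 82.9, 76.2 and 68.7 to 126, 129 and 140.2 CPM (KO1) and from 81.5, 86.0 and 75.2 to 142, 130.4 and 119 CPM (KO2). Ccl4 rose in each of the 5 clones with no overlap, by log2 fold changes from 0.44 ± 0.08 (WT1, adjusted p = 0.000796) to 0.83 ± 0.07 (KO1, adjusted p = 2.53e-07).

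Ccl3 fell in the WT clones. It went from 159, 149 and 135 CPM to 106, 86.5 and 102 CPM in WT1, from 95.4, 91.7 and 89.2 to 79.9, 76.8 and 67.4 CPM in WT2, and from 87.2, 87.96 and 90.7 to 65.1, 69.7 and 62.6 CPM in WT3. The log2 fold changes were -0.60 ± 0.08, -0.29 ± 0.05 and -0.42 ± 0.05, with adjusted p of 6.74e-05, 0.000158 and 1.02e-06 (edgeR). In KO1 the values were 107, 92.6 and 93.1 CPM untreated and 91.8, 93.1 and 106 CPM after IFNG, a log2 fold change of 0.02 ± 0.07 (adjusted p = 0.866), and UT and IFNG libraries overlapped. KO2 went from 101, 96.2 and 93.2 to 90.6, 82.5 and 89.7 CPM, by -0.15 ± 0.05 (adjusted p = 0.0475), a call that 9 of 14 alternatives did not make (adjusted p 0.0159 to 0.248).

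Ccl9 and Ccl6, the CCR1 ligands, fell in WT2 and WT3 and did not pass the test in the other 3 clones. Ccl9 was at 445, 441 and 497 CPM in UT and 361, 365 and 375 CPM in IFNG libraries of WT2, and at 362, 357 and 427 against 288, 278 and 316 CPM in WT3. It fell in these clones by -0.31 ± 0.04 and -0.37 ± 0.06 on the log2 scale (adjusted p = 2.23e-06 and 7.53e-05). In WT1, KO1 and KO2 the estimates were -0.19 ± 0.08, -0.11 ± 0.10 and -0.17 ± 0.08 and did not pass (adjusted p = 0.104, 0.501 and 0.157), with overlapping libraries in all 3. Without the highest-numbered libraries KO2 passed, at -0.28 (adjusted p = 0.000141). Ccl6 ran from 8.49 to 13.7 CPM untreated and from 6.32 to 11.4 CPM after IFNG in the WT clones, and from 9.23 to 10.9 and 7.58 to 9.04 CPM in the KO clones. It fell in WT2 (-0.51 ± 0.11, adjusted p = 0.000918) and WT3 (-0.35 ± 0.10, adjusted p = 0.00727), the latter with adjusted p = 0.0727 without the highest-numbered libraries. In WT1, KO1 and KO2 it had estimates of -0.17 to -0.25 with adjusted p of 0.0537 to 0.351. KO2 passed without the highest-numbered libraries (-0.31, adjusted p = 0.0266).

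**Figure D3:**
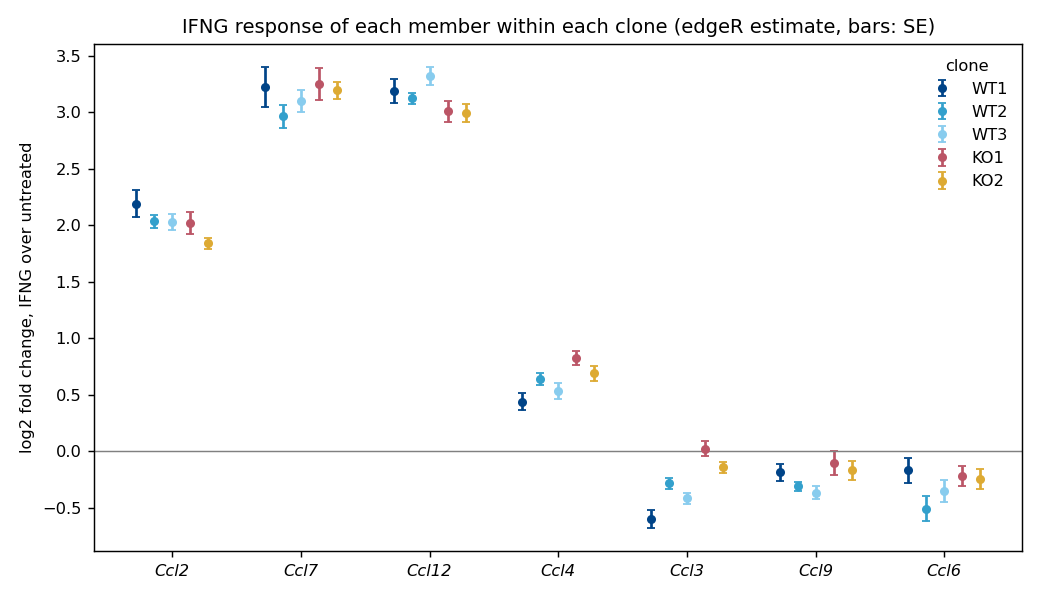
Log2 fold change of IFNG over untreated libraries for the 7 members (horizontal axis) in each clone (colours), with bars of 1 SE from edgeR. Ccl2, Ccl7 and Ccl12 lie between 1.84 and 3.32 in all 5 clones, Ccl4 between 0.44 and 0.83, and Ccl3, Ccl9 and Ccl6 between -0.60 and 0.02.

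Ccl5 and Ccl22 stayed at a few reads. Ccl5 had 61 counts over 9 UT and 64 over 9 IFNG libraries of the WT clones, and 48 and 67 over 6 and 6 in the KO clones, and was above 0 in each library. It passed the filter on low counts within a single clone only in KO2, where its estimate was 0.89 ± 0.43 (adjusted p = 0.15). Ccl22 had 37 counts over the 6 libraries of KO1, 22 in WT1, 11 in KO2 and 4 in WT2. WT3 had 0 of 127006693 counts, which allows a level of up to 0.0236 CPM. This limit covers counting error only. Ccl22 was tested in none of the comparisons.

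Counted over the members, 4 were called higher in each clone, always Ccl2, Ccl7, Ccl12 and Ccl4, and 1 (WT1), 3 (WT2), 3 (WT3), 0 (KO1) and 1 (KO2) were called lower, of 7 tested (8 in KO2). Among all genes tested, 11.8% were called higher and 9.47% lower in WT1, 17.4% and 17% in WT2, 18.6% and 17.5% in WT3, 16.2% and 13.2% in KO1, and 13.9% and 13.2% in KO2. The median log2 fold change of the members tested was 0.44 in WT1, 0.64 in WT2, 0.53 in WT3, 0.83 in KO1 and 0.79 in KO2, against medians over all genes tested of -0.0083 to 0.0019. The KO2 median includes Ccl5, which passed the filter on low counts in that clone alone and was not called. It is thus not on the same members as the others. In the other clones the median was the value of Ccl4, which was 0.69 in KO2.

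With the libraries of a genotype pooled, 4 members were called higher and 2 lower in the WT clones (9 against 9 libraries), where 14.8% and 13.9% of 13423 genes were. Ccl2 rose by 2.09 ± 0.09, Ccl7 by 3.10 ± 0.18, Ccl12 by 3.21 ± 0.11 and Ccl4 by 0.52 ± 0.15 (adjusted p = 0.0124), and Ccl3 fell by 0.46 on the log2 scale (SE 0.14, adjusted p = 0.0212) and Ccl6 by 0.33 (SE 0.11, adjusted p = 0.0337). The calls of Ccl4, Ccl3 and Ccl6 were lost without the highest-numbered libraries (adjusted p = 0.0525, 0.0835 and 0.103), without WT2 or WT3, and with counts summed per clone. Once clone entered the fit as a block, which matches UT and IFNG libraries by clone, Ccl4, Ccl3 and Ccl6 all stayed called. Ccl9 (-0.28 ± 0.13, adjusted p = 0.13) then passed as well (-0.30, adjusted p = 1.49e-06). In the pooled KO clones (6 against 6), 4 members were called higher and 1, Ccl6, lower, against 15.8% and 14.8% of 13851 genes, with Ccl2 at 1.92 ± 0.09, Ccl7 at 3.21 ± 0.24, Ccl12 at 2.997 ± 0.09, Ccl4 at 0.75 ± 0.06 and Ccl6 at -0.23 ± 0.06 (adjusted p = 0.0102). The Ccl6 call was lost with counts summed per clone (adjusted p = 0.227), without KO1 (0.0537) and without KO2 (0.0864). Ccl3, at -0.06 ± 0.06, did not pass there (adjusted p = 0.429).

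The difference between genotypes in the IFNG response was tested by an interaction over all 30 libraries with clone as a term. Ccl3 was the only member called, at 0.37 ± 0.07 higher in KO than in WT clones on the log2 scale (adjusted p = 0.00585), among 8 members tested, where 0.681% of 14682 genes were called higher and 0.341% lower. That call was lost without the highest-numbered libraries (0.29, adjusted p = 0.237), without KO1 (0.29, adjusted p = 0.238) and with counts summed per clone (0.36, adjusted p = 0.487). A test of any difference in response among the 5 clones also called Ccl3 alone of 8 members, with the clones' log2 fold changes spanning 0.58 (adjusted p = 0.00157), where 3.68% of 14870 genes were called. For Ccl2, Ccl7, Ccl12, Ccl4, Ccl9 and Ccl6 the interaction estimates were -0.17 ± 0.10, 0.11 ± 0.15, -0.22 ± 0.09, 0.21 ± 0.08, 0.14 ± 0.09 and 0.08 ± 0.09, with adjusted p from 0.267 to 0.907.

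Levels differed between clones before any treatment. A test among the 5 clones called all 7 members tested, where 73.2% of 14467 genes were called, so the members' count is read against a high background. The clone means spanned 1.08 on the log2 scale for Ccl9, 0.90 for Ccl2, 0.80 for Ccl7, 0.75 for Ccl12 and Ccl3, 0.71 for Ccl4 and 0.33 for Ccl6. Ccl3 was highest in WT1 and Ccl9 in KO1. The Ccl6 call was lost without the highest-numbered libraries (adjusted p = 0.0832), without WT1 (0.258) and without 1 untreated WT1 library (0.144), the Ccl3 call without WT1 (0.0572) and the Ccl12 call without WT2 (0.0745).

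KO clones were compared with WT clones within each treatment, with 6 against 9 libraries from 2 and 3 clones. In untreated cells Ccl2 was higher in KO libraries by 0.66 ± 0.10 on the log2 scale (adjusted p = 0.000153) and Ccl9 by 0.65 ± 0.11 (adjusted p = 0.000584), and Ccl12 was lower, at -0.37 ± 0.12 (adjusted p = 0.0283). These are 2 members called higher and 1 lower of 7, where 12.2% and 14.4% of 13886 genes were. Ccl2 ran from 83.1 to 127 CPM (median 109.6) in the WT and from 129.95 to 201 CPM (median 176) in the KO libraries, and Ccl9 from 357 to 586 CPM (median 445) and from 648 to 962 CPM (median 707), with no overlap for either gene. The share of all genes without overlap between genotypes was not counted in either treatment. The Ccl12 libraries overlapped, and its call was lost without the highest-numbered libraries (adjusted p = 0.0699), without WT2 (0.155) and without KO1 (0.289). The Ccl12 call was also lost with libraries thinned to the smallest library total (0.0567) and without some single libraries (0.0521 to 0.0762). It was made by 19 of 29 alternatives.

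After IFNG, Ccl2 (0.48 ± 0.08, adjusted p = 0.000413), Ccl9 (0.79 ± 0.14, adjusted p = 0.000763) and Ccl4 (0.56 ± 0.12, adjusted p = 0.0027) were higher in KO libraries, and Ccl12 was lower (-0.58 ± 0.09, adjusted p = 0.000222). That is 3 higher and 1 lower of 7, where 10.9% and 13% of 13637 genes were. All 6 KO libraries of Ccl12, at 70.0 to 90.4 CPM, lay below all 9 WT libraries, at 93.3 to 144 CPM. The libraries of Ccl2, Ccl9 and Ccl4 overlapped between genotypes, and the Ccl4 call was lost without KO1 (0.54, adjusted p = 0.052). Ccl7 had estimates of -0.02 ± 0.22 untreated and 0.08 ± 0.17 after IFNG (adjusted p = 0.95 and 0.76).

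With counts summed per clone, so that 3 WT clones stood against 2 KO clones, none of these calls remained: adjusted p was 0.244 for Ccl2, 0.305 for Ccl9 and 0.477 for Ccl12 untreated, and 0.274 for Ccl2, 0.332 for Ccl9, 0.357 for Ccl4 and 0.276 for Ccl12 after IFNG. Over all genes the summed fit called 1 of 16189 untreated and 1 of 16197 after IFNG, so the loss is not particular to these members. Some macrophage markers differed between KO and WT libraries too. Their calls also rested on the libraries of 2 and 3 clones, so the limit of the summed fit holds for them as well. The summed level of the 8 markers was 4241 to 5602 CPM in UT and 4266 to 5444 CPM in IFNG libraries of the WT clones, and 6097 to 6881 and 6103 to 6624 CPM in those of the KO clones. The members of that list differed in direction. Adgre1, Csf1r, Spi1 and Itgam were higher in KO clones in both treatments, Adgre1 by 2.39 ± 0.48 untreated and 2.43 ± 0.46 after IFNG. Ptprc was higher untreated (0.15 ± 0.05, adjusted p = 0.032) and did not pass after IFNG (adjusted p = 0.476). Mertk was lower, at -1.10 ± 0.18 (adjusted p = 0.000288) and -1.05 ± 0.16 (adjusted p = 0.00024), and Cd68 and Lyz2 did not pass in either treatment. Whether these marker differences have a part in the chemokine differences was not tested, and in bulk RNA fewer cells of a type and less RNA per cell cannot be told apart. With 3 WT and 2 KO clones, of which the WT clones were not electroporated, the deletion, the editing procedure and clone-to-clone differences cannot be told apart.

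Ratios within a library were chosen after their values were seen and so not tested. Of 4 examined, 2 separated the genotypes. The share of other gene ratios that do so was not counted, and 73.2% of genes tested differed among the 5 clones untreated. Per kilobase, Ccl4 over Ccl3 was 0.622 to 0.723 in WT and 0.857 to 1.04 in KO libraries untreated, and 1.16 to 1.51 against 1.54 to 1.84 after IFNG. Ccl12 over Ccl2 was 0.208 to 0.321 against 0.107 to 0.148 untreated, and 0.442 to 0.650 against 0.254 to 0.282 after IFNG. Ccl7 over Ccl2 overlapped between WT and KO libraries, at 0.0614 to 0.139 against 0.0501 to 0.0808 untreated and 0.155 to 0.295 against 0.114 to 0.214 after IFNG. Ccl9 over Ccl2 overlapped as well, at 1.22 to 2.35 against 1.21 to 2.77 untreated and 0.251 to 0.49297 against 0.296 to 0.550 after IFNG.

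**Figure D4:**
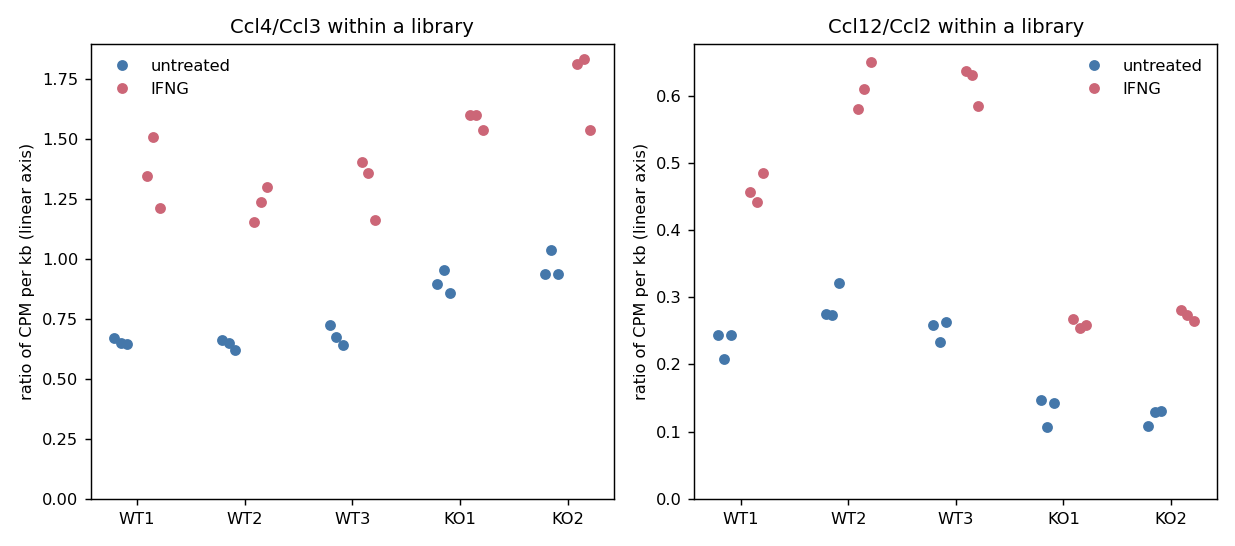
Ratio of CPM per kb of Ccl4 to Ccl3 and of Ccl12 to Ccl2 in each library, by clone and treatment. Within a treatment the KO libraries lie above the WT libraries for Ccl4 over Ccl3 and below them for Ccl12 over Ccl2, and both ratios are higher after IFNG.

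Within the chromosome 11 clusters the response followed position only in part. Genes at 1 CPM or more within 100 kb of the monocyte chemoattractants were those 3 and Ccl8. Around the second cluster, Wfdc17 rose by 0.87 ± 0.13 in the pooled WT clones (adjusted p = 2.25e-05), while Taf15 (0.07, adjusted p = 0.141) and Heatr6 (0.12, adjusted p = 0.0538) did not pass.

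**Figure D5:**
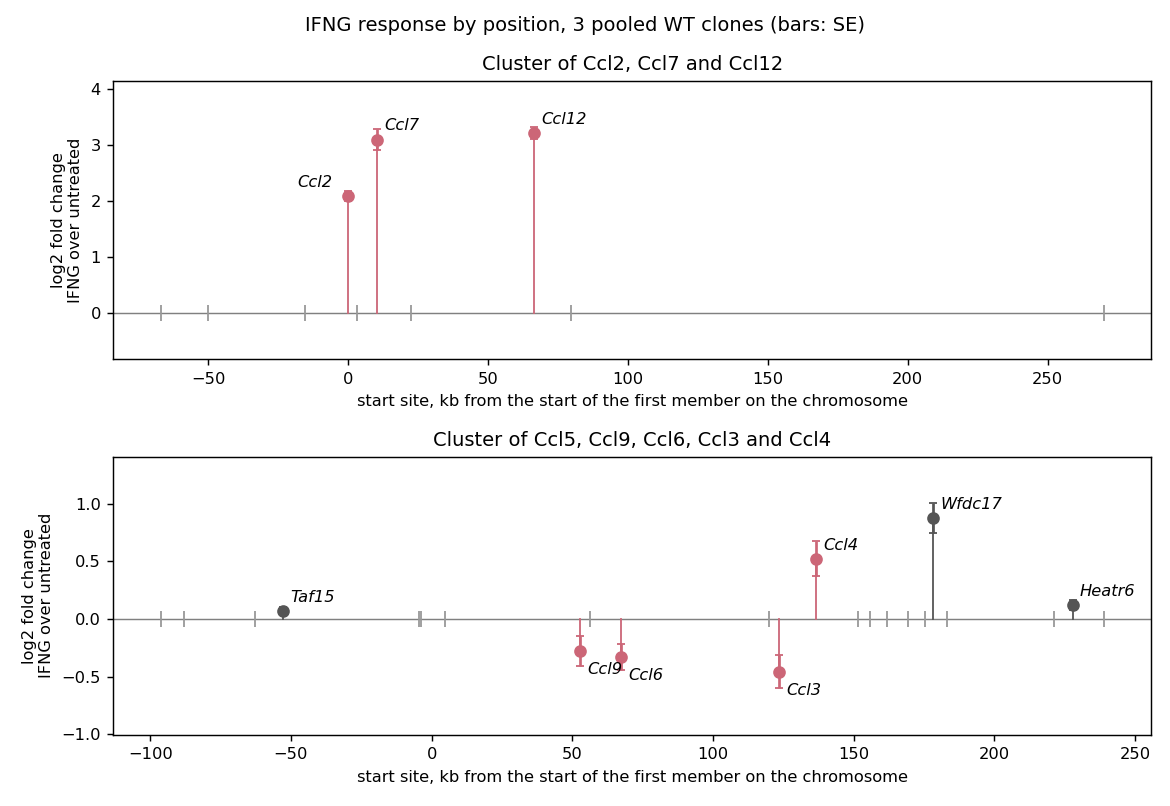
Log2 fold change of IFNG over untreated in the pooled WT clones (vertical axis) against position within each of the 2 chromosome 11 clusters, with grey ticks for genes under 1 CPM or not tested. Ccl2, Ccl7 and Ccl12 lie between 2.09 and 3.21, and Ccl4 at 0.52 lies beside Ccl3 at -0.46.

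Of 12 other CC chemokines, Ccl8, a further monocyte attractant, had 1 count over the WT UT and 54 over the WT IFNG libraries. In the KO clones it had 3 and 133. Its group means after IFNG were 0.25 to 0.36 CPM in WT and 0.67 and 1.12 CPM in KO clones. Ccl8 did not pass the filter on low counts in the pooled WT clones and so was not tested there. In the pooled KO clones it rose by 5.24 ± 0.56 (adjusted p = 3.35e-06). The interaction of genotype and IFNG for Ccl8 was 0.21 ± 0.63 (edgeR, adjusted p = 0.97). Ccl25 rose in the pooled WT clones by 0.28 ± 0.08 (adjusted p = 0.0127), where 14.8% of all genes tested were called higher. It was not called within any single clone (adjusted p from 0.0891 in WT1 to 0.985 in KO2) or in the pooled KO clones (0.14, adjusted p = 0.378). Ccl24 was at 2.18 ± 0.62 CPM untreated and 1.72 ± 0.31 after IFNG in the pooled WT clones (adjusted p = 0.156). Of 14 receptors and decoys for CC chemokines, 4 were tested in the pooled WT clones and all 4 rose, where 14.8% of all genes tested did, with a median of 1.38, among them Ccr1 by 2.61 ± 0.40, Ccrl2 by 1.38 ± 0.21 and Ccr2 by 0.76 ± 0.17. After IFNG, Ccrl2 was higher in KO than in WT clones (0.43 ± 0.10, adjusted p = 0.00503).

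Among 14 regulators of chemokine transcription and mRNA decay, 8 rose, 1 fell and 5 did not pass in the pooled WT clones, where 14.8% of all genes tested were called higher and 13.9% lower. Socs1, a feedback inhibitor of the receptor, rose by 6.88 ± 0.16 and Irf1 by 5.10 ± 0.07. Zfp36, which encodes the mRNA decay factor tristetraprolin, rose by 1.92 ± 0.15, and Bcl3 (2.56 ± 0.11), Irf8 (2.47 ± 0.17), Jun (0.59 ± 0.09) and Nfkb1 (0.23 ± 0.03) rose as well, while Fos fell (-0.84 ± 0.20, adjusted p = 0.00273). Tnfaip3 (0.94), Zc3h12a (0.25), Nfkbia (0.10), Rela (-0.04) and Nfkbiz (-0.24) did not pass, with adjusted p from 0.113 to 0.632. In the pooled KO clones 9 rose, 1 fell and 4 did not pass, against 15.8% and 14.8%. After IFNG, 5 of the 14 were called higher and 0 lower in KO than in WT clones, against 10.9% and 13% of all genes. They were Tnfaip3 (1.25 ± 0.31), Nfkbia (0.69 ± 0.09), Bcl3 (0.50 ± 0.08), Zfp36 (0.46 ± 0.11) and Rela (0.19 ± 0.06), with adjusted p from 6.3e-05 to 0.0472. With counts summed per clone, 1 gene of 16197 was called in that comparison.

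Likeness to each member was measured by Pearson's r of log2 CPM over the 10 group means, among 11580 genes. The 3 genes most like Ccl2 were Samhd1 (0.993), Fam49b (0.992) and Riok3 (0.985). Those most like Ccl7 were Susd6 (0.997), Trim21 (0.994) and Pi4ka (0.994), and those most like Ccl12 were Adar (0.997), Trim34b (0.997) and Fcgr4 (0.996). For Ccl4 they were Slc52a3 (0.991), Psmb8 (0.986) and Ogfr (0.980), and for Ccl3 Plcd3, Samsn1 (both 0.931) and Ppfibp2 (0.930). For Ccl9 they were Rnf128, Dpy30 (both 0.986) and Gpr107 (0.981), and for Ccl6 Galnt4 (0.973) and Hyal1 (0.946) were among the 3. Pearson's r takes no account of the size of a change. Over the group means Ccl2 ran from 100.3 to 672 CPM and Samhd1 from 180 to 1087 CPM. Fam49b ran only from 267 to 355 CPM and Riok3 from 108 to 161 CPM. The means of a clone untreated and after IFNG share that clone, and the values are a description.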

How the data were processed

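RNA-seq counts of J774A.1 clones were analysed. The authors used BBDuk for trimming and HISAT2 2.1.0 for alignment against mm10, kept unique fragments and counted them over exons, by strand, with featureCounts 1.6.2, and deposited raw counts per gene and library along with DESeq2 1.26.0 fold changes and p-values, which were not used. The file headers name a GENCODE vM18 annotation and let a fragment count for each gene it overlaps, while the methods name a RefSeq annotation; the conflict was not resolved. Columns named wtc1 and wtc3 were taken as WT2 and WT3, because the tables deposited for those clones hold them, and columns carry no replicate number. The 13 other tables repeat the same columns. Symbols were matched by Ensembl identifier for 54079 of 54146 genes.

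Here, counts were tested with the edgeR 4.0.16 quasi-likelihood test in R 4.3.3, after filterByExpr and TMM scaling, with Benjamini-Hochberg adjustment over all genes tested and a threshold of 0.05. SE is the log2 fold change over the square root of F. The fit was tested on simulated data. DESeq2 1.42.0 and further settings were tried as alternatives. Libraries of a group differed beyond counting noise (chi-square per degree of freedom 1.95 to 19.5 over 30 pairs). The members, gene lists and tests were chosen with earlier results of these data known. Named genes were all members, listed genes called in the pooled WT clones with the largest changes or at 1 CPM or more, expressed neighbours, the 3 genes most like each member, and Dicer1. Some genes that this rule names are not reported here.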

Additional observations from a re-analysis of the deposited data

Results flagged for a closer look

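Among the untreated KO libraries, 1 of Ccl9 stood far from the others. It was a KO1 library at 962 CPM, with the next highest at 741 CPM, a gap of 0.705 of the range of the 6 libraries, beyond Dixon's critical value for that number. 28 groups were examined in this way, and chance alone flags some of that many. That library is also the highest-numbered of its group.

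The response of Ccl3 to IFNG differed between genotypes, by 0.37 on the log2 scale (edgeR interaction, adjusted p = 0.00585), and among the 5 clones, whose estimates spanned 0.58 (adjusted p = 0.00157). Ccl3 fell in WT1, WT2, WT3 and, by -0.15 (adjusted p = 0.0475), in KO2, and was at 0.02 in KO1. The genotype difference was lost without KO1 (adjusted p = 0.238), without the highest-numbered libraries (0.237) and with counts summed per clone (0.487).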

How the results depend on the processing

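No paired analysis was possible because the columns carry no replicate number, and for the same reason the planned omission of replicate 1, 2 or 3 of every group was not run. Leaving out the highest-numbered library of every group, a term for library position and the omission of single libraries from the genotype and among-clone tests were chosen after seeing the data. Causes were not tested.

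The number of members called, 6 in the pooled WT clones, became 3 without the highest-numbered libraries, with counts summed per clone, and without WT2 or WT3. For KO against WT untreated it went from 3 to 5 in a single fit over all 30 libraries and without WT1, and to 0 with summed counts. After IFNG it went from 4 to 0 with summed counts. The interaction went from 1 to 2 with no filter on low counts, and to 0 without the highest-numbered libraries, with summed counts and without KO1. The test of response among clones went from 1 to 3 with no filter. With single libraries left out the counts ranged from 5 to 6 in WT1, 7 to 7 in WT2 and WT3, 4 to 4 in KO1, 4 to 7 in KO2, 2 to 4 for KO against WT untreated, 4 to 5 after IFNG, 1 to 1 for the interaction and the response among clones, and 6 to 7 for untreated levels among clones.

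Over all genes, KO against WT called 3689 untreated and 3258 after IFNG, but 1 and 1 with summed counts, 1731 and 1839 without the highest-numbered libraries, 7143 and 7194 in the single fit, 6472 and 5992 without WT1, and 1674 and 1411 without KO1. The pooled WT response called 3840, against 6571 in the single fit, 6367 with clone as a block and 1231 summed, and the pooled KO response 4246 against 1247 summed. The interaction called 150, against 384 with no filter, 79 without the highest-numbered libraries, 2 summed, 570 without WT1, 35 without WT2, 73 without WT3 and 21 without KO1. The response among clones called 547, against 919 with no filter and 319 without WT3.

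Signs turned for estimates near 0. Ccl3 within KO1 was -0.088 without the highest-numbered libraries and -0.011 in the single fit, and ranged from -0.052 to 0.088 with single libraries left out, and Ccl9 within KO1 from -0.22 to 0.030. Ccl3 in the pooled KO clones was 0.020 without KO2. For KO against WT untreated, Ccl7 was 0.0020 with the position term, 0.11 without WT2, 0.064 without WT3 and 0.31 without KO1, and ranged from -0.13 to 0.098 with single libraries left out, and Ccl3 was 0.11 without WT1 (adjusted p = 0.0389). After IFNG, Ccl6 was 0.13 without WT1, 0.0050 without KO2, and Ccl7 was -0.071 and -0.33, and with single libraries left out they ranged from -0.095 to 0.013 and from -0.010 to 0.19. The interaction of Ccl5 was -0.15 without WT1, -0.38 without KO2, and ranged from -0.13 to 0.27 with single libraries left out.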
